A study of Mus musculus with 4 samples.

Results

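The Id genes and the inhibitory Smads were followed as 6 genes, Id1, Id2, Id3, Id4, Smad6 and Smad7, of the 27514 genes that all 4 gene tables of the study shared. They were listed as response genes of bone morphogenetic protein (BMP) signalling and matched by Ensembl identifier. The set was selected on results of these same cells, in which Id1 was higher in progenitor cells of the conditional knockout (cKO) at embryonic day (E) 9.5, so the values of that contrast are a description and carry no test. Single cells of the Tbx1Cre lineage were sorted from Swiss Webster mouse embryos as GFP-positive, DAPI-negative cells and counted by unique molecular identifiers (UMIs) in 3′-tag libraries. The control (Ctrl) embryos were Tbx1Cre/+;Rosa26-GFPflox/+ and the cKO embryos Tbx1Cre/flox;Rosa26-GFPflox/+. Both genotypes were sampled as the upper body at E8.5 and as the pharyngeal apparatus and heart at E9.5. Tbx1Cre replaces 1 copy of Tbx1, so the Ctrl embryos were heterozygous for Tbx1, and both the reporter and the deletion followed the cells in which the Tbx1 locus is or was active.

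Id proteins are helix-loop-helix proteins without a DNA-binding region. They pair with the E proteins that tissue-specific bHLH factors need as partners, and so hold back differentiation programmes such as myogenesis. BMP receptors activate Smad1, Smad5 and Smad9, which enter the nucleus with Smad4 and switch on the Id genes, while Smad6 and Smad7 are induced by the pathway and damp it, Smad6 mainly for BMP and Smad7 for BMP and TGF-beta signals. In the pharyngeal region BMP signals act on the second heart field and on the progenitors of branchiomeric muscle.

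There was 1 library per group, from pooled embryos, so the variation among embryos is unknown, and genotype and library cannot be told apart. At E8.5 the study's somite counts ran slightly higher for the cKO than for the Ctrl embryos. At E9.5 the somite ranges began alike and ended slightly higher for the cKO. Fewer embryos were pooled for the cKO than for the Ctrl library at both stages. Age and genotype thus cannot be told apart either. The 4 libraries held 1090 to 6266 barcodes with medians of 15910.5 to 23984 UMIs, and any pair of libraries shared 2 to 55 barcode sequences. The cKO E9.5 library had been counted on a table of 31053 genes and the other 3 on a table of 27998, and all 6 genes carried the same identifier and symbol in both. Tbx1 stood at 86.4 UMIs per 1000000 in Ctrl and 118 in cKO at E8.5, and at 103 in Ctrl and 134 in cKO at E9.5, so its 3′ counts were not lower in the libraries labelled cKO. Whether these counts fall inside the deleted part of the gene was not tested, so they do not check the labels. Levels are UMIs of a gene per 1000000 UMIs (UPM) summed over the cells of a group. Brackets hold 95% intervals, exact Poisson for a level, conditional binomial for a ratio and Clopper-Pearson for a share of cells, and all of them cover counting error only.

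Cells were grouped by marker gates, each requiring a minimum number of detected markers, in 13 classes. Some were named after the study's populations. Crym mesenchyme-like, Foxd1 mesenchyme-like and Zic1 mesoderm-like cells were named after a gate marker. The class of most interest, multilineage progenitor-like (MLP-like) cells, required 5 of 7 markers, among them Arg1, Rdh10 and Hoxb1. It held 141 cells in Ctrl and 176 in cKO at E8.5, and 132 in Ctrl and 475 in cKO at E9.5. The 5 markers kept aside as a check, Aplnr, Nrg1, Isl1, Tbx1 and Igfbp5, were each higher inside the gate than outside it in all 4 libraries. The margin was small for Tbx1 in Ctrl E8.5, at 90.1 UPM inside and 85.9 outside. Inside the E9.5 gates Aplnr stood at 133 in Ctrl and 16.4 in cKO, Nrg1 at 59.4 and 17.9, and Isl1 at 139 and 59.9. Igfbp5 stood at 403 and 185, and Tbx1 at 146 and 181. The check thus holds within each library and does not show that the E9.5 gates hold like cells. A gate of this kind is a range and not a cell type: 53 of the 132 cells of Ctrl E9.5 and 229 of the 475 of cKO E9.5 sat at the minimum, and another 409 and 611 cells fell 1 marker short. Of the cells past the MLP-like minimum, 234 in Ctrl and 213 in cKO at E9.5 were placed elsewhere or nowhere because they held as large or a larger share of another class's markers. For each other class, the median number of its markers detected in MLP-like cells was 0 to 3 and below that class's own minimum. Placement by the highest share of markers favours this outcome, so it is no check of the gate.

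The start regions of 4 of the 6 genes were taken from the RefSeq promoter table for GRCm38.p6 (mm10), the build the files were counted on. They are shown because these genes are read out as BMP responses, and each runs from 250 bases before to 50 after the annotated start, 5′ to 3′ on the gene's strand. Id2 is at chr12:25096043-25096342 (minus strand), Id3 at chr4:136143572-136143871 (plus strand), Id4 at chr13:48260866-48261165 (plus strand) and Smad6 at chr9:64022010-64022309 (minus strand). Capitals mark matches, on either strand, to GGCGCC, the GC-rich element of BMP Smads, GTCTAGAC, the palindromic Smad-binding element, CAGACA, a single Smad element with its flank, and AGGTGTGA, a single T-box site.
Id2: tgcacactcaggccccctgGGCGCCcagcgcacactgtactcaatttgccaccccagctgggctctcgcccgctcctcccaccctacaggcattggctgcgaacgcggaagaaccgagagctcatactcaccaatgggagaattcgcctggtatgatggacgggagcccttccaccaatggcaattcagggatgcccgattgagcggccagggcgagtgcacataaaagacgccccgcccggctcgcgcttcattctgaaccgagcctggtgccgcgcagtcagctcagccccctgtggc
Id3: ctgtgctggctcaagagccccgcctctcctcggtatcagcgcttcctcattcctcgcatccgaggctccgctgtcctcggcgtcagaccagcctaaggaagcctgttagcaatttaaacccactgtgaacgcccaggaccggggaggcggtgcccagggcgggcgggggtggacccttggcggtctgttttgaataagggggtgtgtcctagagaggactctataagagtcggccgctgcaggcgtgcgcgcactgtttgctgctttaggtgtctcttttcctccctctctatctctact
Id4: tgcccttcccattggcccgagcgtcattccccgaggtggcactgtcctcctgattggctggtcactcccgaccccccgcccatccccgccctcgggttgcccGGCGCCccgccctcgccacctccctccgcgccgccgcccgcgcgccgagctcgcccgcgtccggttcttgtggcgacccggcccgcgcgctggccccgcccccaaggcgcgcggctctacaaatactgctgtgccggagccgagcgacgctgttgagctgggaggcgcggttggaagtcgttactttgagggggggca
Smad6: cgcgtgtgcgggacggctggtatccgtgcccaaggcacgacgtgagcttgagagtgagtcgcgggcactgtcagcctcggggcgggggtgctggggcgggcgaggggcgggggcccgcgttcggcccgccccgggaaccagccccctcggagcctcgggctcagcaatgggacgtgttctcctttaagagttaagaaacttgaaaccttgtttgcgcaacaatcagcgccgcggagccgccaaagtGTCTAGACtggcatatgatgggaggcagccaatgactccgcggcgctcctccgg

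GGCGCC was found in the Id2 window, 231 to 226 bases before the start, and in the Id4 window, 148 to 143 bases before it, and in 11.9% of all 32851 RefSeq promoter windows of this length. GTCTAGAC was found in the Smad6 window, across the start from base -4 to base 4, and in 0.213% of all windows. CAGACA (21.0% of all windows) and AGGTGTGA (1.28%) were in none of these 4 windows, and the Id3 window held none of the 4 motifs. No window held overlapping matches. Id1, for which the table holds no entry, lies on chromosome 2 from 152736251 to 152737410. Entries on chromosome 18, where Smad7 lies, were left out of the search, so the motifs were not looked for in Smad7. These matches describe letters and say nothing of binding in these cells.

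Id1 and Id3, the members most tied to BMP signals in mesoderm, and Id2 were high in these cells, while Id4, Smad6 and Smad7 were sparse. In MLP-like cells Id1 stood at 241 UPM [224, 260] in Ctrl and 245 [231, 259] in cKO at E8.5, and at 164 [148, 182] in Ctrl and 453 [439, 467] in cKO at E9.5. Both E8.5 libraries overlapped, Ctrl E9.5 was the lowest and cKO E9.5 the highest. The cKO E9.5 level was 2.76 times that of Ctrl E9.5 [2.48, 3.07], a log2 ratio of 1.46 [1.31, 1.62], while at E8.5 the log2 ratio was 0.02 [-0.12, 0.15]. Among the 8946 genes with at least 50 UMIs over both E9.5 sums, 98.5% had a lower ratio. With every cell past the MLP-like minimum taken, whichever other class it matched, the log2 ratio was 0.56, and with cells past more than 1 gate left out it was 1.92. The Ctrl E9.5 cells that passed the minimum but were placed elsewhere had 340 UPM of Id1 [324, 356], against 364 [348, 381] for the same kind of cells in cKO E9.5. MLP-like cells made up 2.42% of the Ctrl E9.5 barcodes and 7.58% of those of cKO E9.5, and the part of the gate's makeup in the Id1 ratio was not tested. The cells placed elsewhere included 70 placed in the epithelial-like class in Ctrl and 33 in cKO at E9.5.

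The E9.5 ratios of all genes were shifted: their median was -0.22 in MLP-like cells and between -0.26 and -0.15 over the 11 classes compared, while at E8.5 the medians lay between -0.07 and 0.03. Relative to that median Id1 was higher by 1.69 in log2, Id3 by 0.64, Id2 by 0.39 and Smad6 by 0.48, and Smad7 stood at -0.34 and Id4 at -0.40. Of all genes with that many UMIs in MLP-like cells at E9.5, 5.9% were at least 1.5-fold higher and 20.7% at least 1.5-fold lower in cKO. Of the 6 members 1, Id1, was past 1.5-fold upward and 1, Id4, downward. At E8.5 4 members had the 50 UMIs asked for, and 0 of them passed 1.5-fold in either direction, against 7.4% of all genes upward and 3.08% downward. Since the E9.5 contrast chose the set, nothing is read from its counts.

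Across single MLP-like cells the E9.5 difference in Id1 was a shift of most of the distribution. After each cell had been thinned to 10000 UMIs, the median cell held 2 Id1 UMIs in both E8.5 libraries, 1 in Ctrl and 3 in cKO at E9.5. Cells with at least 1 Id1 UMI made up 84.9% [77.8, 90.4], 81.8% [75.3, 87.2], 53.1% [44.1, 62.0] and 89.0% [85.7, 91.8] (Ctrl and cKO of E8.5, then of E9.5), and without thinning 93.6%, 94.9%, 68.2% and 93.5%. Thinning left out 2, 0, 4 and 29 MLP-like cells. No class here is known to lack Id1, so no share stands for background, and the MLP-like share in Ctrl E9.5 was the lowest of all classes in that library. The 90th percentile of thinned cells was 4 UMIs in Ctrl and 10 in cKO at E9.5.

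**Figure D1:**
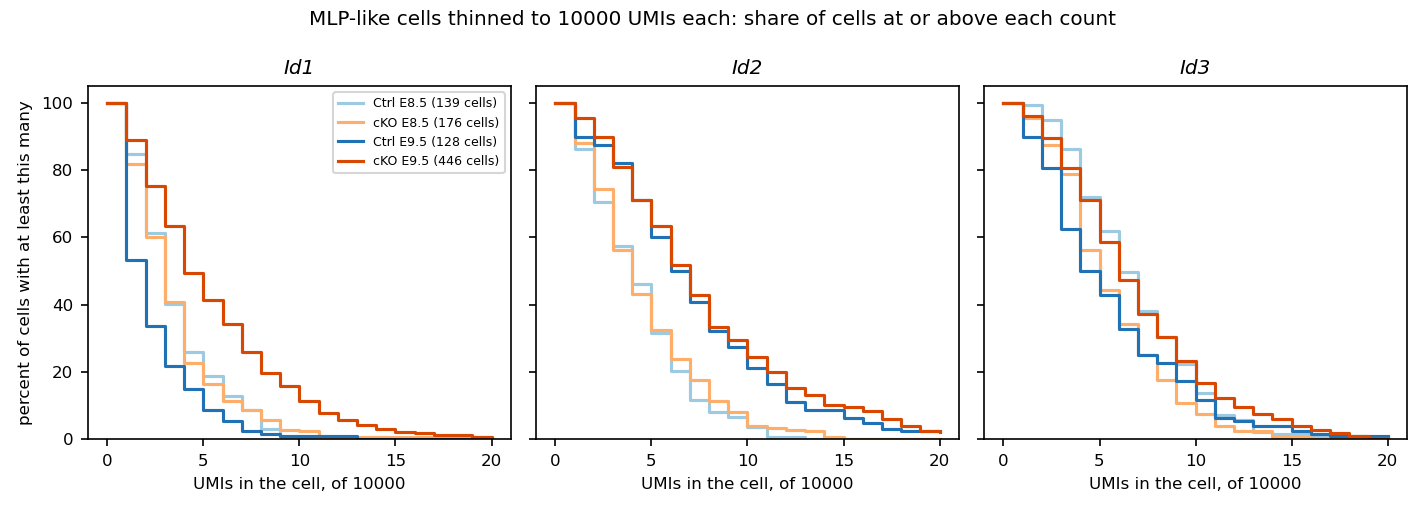
Share of MLP-like cells (y axis, percent) holding at least a given number of UMIs (x axis) of Id1, Id2 and Id3, each cell thinned to 10000 UMIs, 1 line per library. For Id1 the Ctrl E9.5 line (128 cells) drops to 53.1% at 1 UMI and the cKO E9.5 line (446 cells) to 89.0%, while the lines of Id2 for the same libraries lie close together.

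The level of Id1 was also followed over the number of MLP-like markers a cell held, which needs no placement into classes. In Ctrl E9.5 it was 277 UPM in cells with none of the markers, 328 [318, 338] in cells with 4 or 5, and 219 [202, 237] in the 135 cells with 6 or 7. In cKO E9.5 it was 362, 434 [424, 443] and 434 [417, 451] at the same steps. At 7 markers, where Ctrl E9.5 had 17 cells, the levels were 133 and 438, and with those cells left out the Ctrl level at 6 markers was 229. At E8.5 cells with 6 or 7 markers had 235 UPM in Ctrl and 223 in cKO, both below the 323 of cells with 1 to 3 markers. Id1 was thus lower in cells with 6 or 7 markers than in cells with 1 to 3 in both E8.5 libraries and in Ctrl E9.5 (277 at 1 to 3 markers), and higher in cKO E9.5 (389). In Ctrl E8.5 cells with 4 or 5 markers, at 261 [250, 273], overlapped with those with 6 or 7. In cKO E9.5, 122 MLP-like cells with a UMI of Pax8 had 514 UPM of Id1 [485, 544] and the 353 without had 432 [416, 448].

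**Figure D2:**
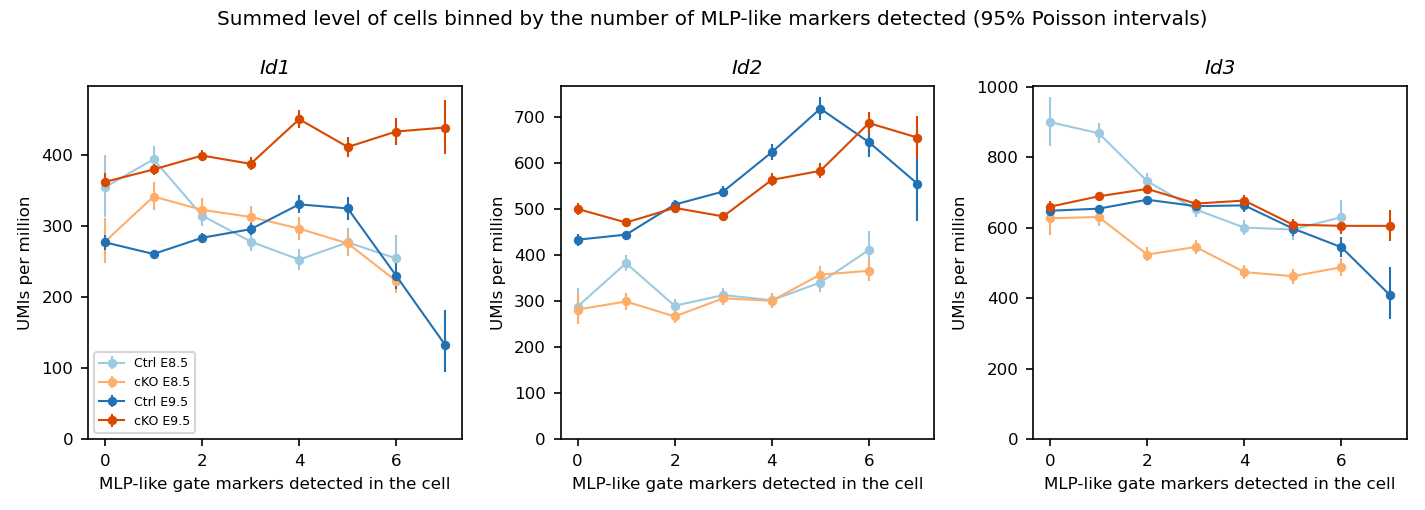
Summed level in UPM (y axis) of Id1, Id2 and Id3 in cells binned by the number of detected MLP-like gate markers (x axis), 1 line per library, bins of at least 15 cells, bars for 95% Poisson intervals. The Id1 line of Ctrl E9.5 falls to 133 at 7 markers while that of cKO E9.5 stays between 362 and 450.

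Outside the MLP-like class, Id1 at E9.5 was higher in the library labelled cKO in most classes, by less. All cells outside the gate had a log2 ratio of 0.46, and the MLP-like ratio exceeded theirs by 1.0 [0.85, 1.16]. Over the 11 classes with at least 15 cells in both E9.5 libraries the log2 ratio of Id1 ran from -0.28 to 1.46, with the interval above 0 in 8 classes and below 0 in 1. Endothelial-like cells followed MLP-like cells, with 145 UPM in Ctrl and 235 in cKO, a log2 ratio of 0.70 [0.54, 0.86]. Placement kept 132 of the 366 cells past the MLP-like minimum in Ctrl E9.5 and 475 of 688 in cKO E9.5. With all of them taken the MLP-like log2 ratio was 0.56, below that of endothelial-like cells, so this order follows the placement. The excess of 1.0 likewise holds for the placed cells only. Foxd1 mesenchyme-like (0.46), epithelial-like (0.46), aSHF/SoM-like (0.36; cells of the anterior second heart field or of somatic mesoderm), cardiomyocyte-like (CM-like, 0.33) and Crym mesenchyme-like cells (0.32) had intermediate ratios. Branchiomeric muscle-like (BrM-like) cells had 229 UPM in Ctrl and 244 in cKO, a ratio of 0.09 [-0.02, 0.20]. Neural-like cells had 262 and 236, a ratio of -0.15 [-0.42, 0.12]. Posterior second heart field-like (pSHF-like) cells had the lowest ratio, with 292 in Ctrl and 240 in cKO, -0.28 [-0.46, -0.10]. With edgeR's TMM factors in place of total UMIs the pSHF-like value was -0.11, and 9 classes then had an interval above 0 and none below.

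The place of MLP-like cells among the classes differed between the E9.5 libraries. In Ctrl E9.5 Id1 was highest in aSHF/SoM-like cells (480 UPM) and Crym mesenchyme-like cells (455), whose intervals overlapped, and lowest in MLP-like, Foxd1 mesenchyme-like (153) and endothelial-like cells (145), whose neighbours also overlapped. In cKO E9.5 the order began with the same pair, at 614 and 570, which no longer overlapped, and MLP-like cells stood in the upper part of the 12 classes, overlapping with epithelial-like (485) and CM-like cells (401). BrM-like and pSHF-like cells, at 244 and 240, did not differ beyond counting error there.

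**Figure D3:**
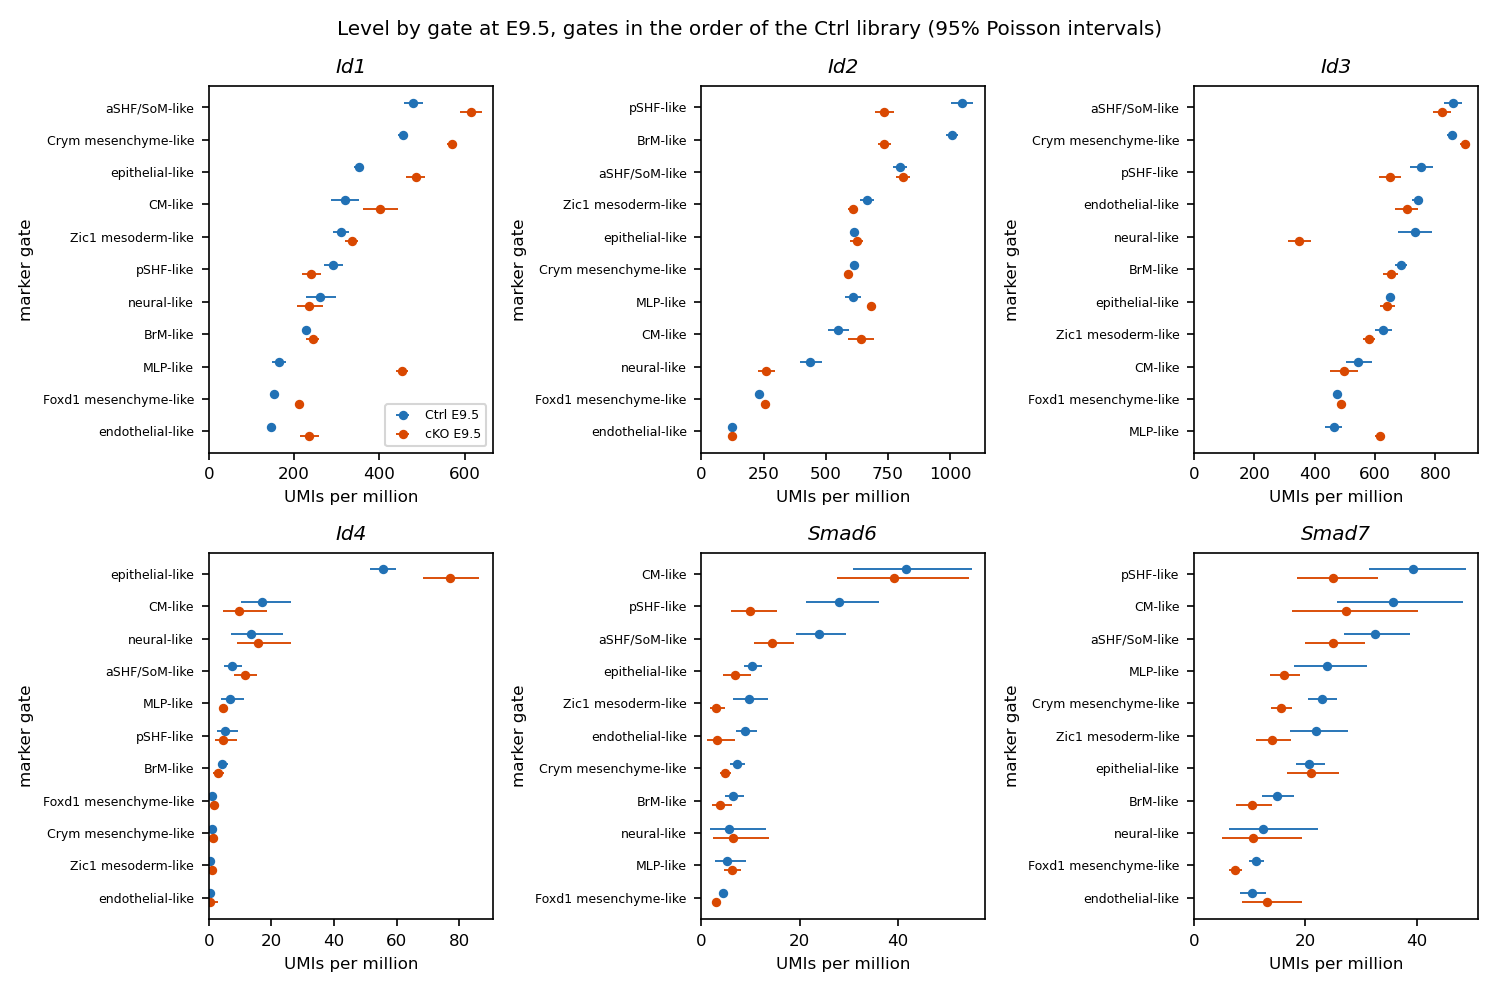
Level in UPM (x axis) of each gene by class (y axis, ordered by the Ctrl E9.5 level), in Ctrl E9.5 and cKO E9.5, points for summed levels and bars for 95% Poisson intervals. MLP-like cells lie near the bottom for Id1 in Ctrl E9.5 (164) and apart from it in cKO E9.5 (453), and Id4 stands out in epithelial-like cells.

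Id3, whose product acts with that of Id1 in many mesodermal tissues, behaved otherwise. In MLP-like cells it stood at 578 UPM [551, 606] in Ctrl and 466 [447, 486] in cKO at E8.5, and at 463 [435, 491] in Ctrl and 617 [601, 634] in cKO at E9.5. The cKO library was the lower one at E8.5, with a log2 ratio of -0.31 [-0.40, -0.22], and the higher one at E9.5, with 0.42 [0.32, 0.51], which came to 0.084 when every cell past the MLP-like minimum was taken. At E8.5 Id3 was lower in cKO in all 10 classes compared, with ratios between -0.52 in CM-like and -0.31 in MLP-like cells and intervals below 0 in each, under both scalings. Over all cells of E8.5 it was 697 UPM in Ctrl and 524 in cKO, and 6.47% of 11393 genes had a lower ratio. Both E8.5 libraries were counted on the same gene table, and their median depths were 17319.5 UMIs in Ctrl and 23984 in cKO. With barcodes of few genes, many mitochondrial UMIs or very high depth left out, the ratio over all cells was -0.41 and that in pSHF-like cells, which moved most, -0.27. The part of depth in it was not tested. At E9.5 the ratios of Id3 ran from -1.08 in neural-like cells, at 731 UPM in Ctrl and 347 in cKO, to the 0.42 of MLP-like cells. The neural-like class held 54 and 55 cells. Intervals were above 0 in 3 classes and below 0 in 4 by total UMIs and in 6 and 1 with TMM factors, so that the direction of the smaller differences follows the scaling. Among the classes of Ctrl E9.5 MLP-like cells had the lowest Id3, overlapping with Foxd1 mesenchyme-like cells at 475.

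Id2, which marks second heart field and arch tissues among others, showed the widest range among the abundant members. In Ctrl E9.5 it ran from 1047 UPM in pSHF-like and 1006 in BrM-like cells, which overlapped, to 123 in endothelial-like cells, an 8.49-fold span. In MLP-like cells it stood at 340 UPM [319, 361] in Ctrl and 346 [329, 362] in cKO at E8.5, and at 609 [578, 642] in Ctrl and 683 [666, 701] in cKO at E9.5. Both E8.5 libraries overlapped and both E9.5 libraries were higher. The E9.5 log2 ratio of 0.17 [0.08, 0.25] turned to -0.14 when every cell past the MLP-like minimum was taken. The pair of classes with the highest Id2 in Ctrl E9.5 had lower levels in cKO E9.5. In pSHF-like cells the level was 736 in cKO, a log2 ratio of -0.51 [-0.61, -0.41], and in BrM-like cells 735, a ratio of -0.45 [-0.51, -0.39]. Both ratios kept their sign with TMM factors, at -0.34 and -0.23. Neural-like cells had the lowest ratio, -0.75 [-0.99, -0.52]. Endothelial-like cells stood at 123 and 122. At E8.5 the interval of Id2 was below 0 in 6 of 10 classes and above 0 in 1, with the lowest ratio, -0.46 [-0.60, -0.31], in Foxd1 mesenchyme-like cells.

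Id4, the member best known from neural and epithelial tissues, was sparse at E8.5 and at E9.5 highest in epithelial-like cells, which held 687 of its 957 UMIs in Ctrl E9.5. Over all cells it stood at 0.793 UPM (20 UMIs) in Ctrl and 1.17 (30 UMIs) in cKO at E8.5, and at 10.2 (957 UMIs) in Ctrl and 5.98 (626 UMIs) in cKO at E9.5. Epithelial-like cells had 55.6 UPM [51.5, 59.9] in Ctrl and 77.1 [68.5, 86.4] in cKO at E9.5, against 0.25 and 0.527 in endothelial-like cells. Thinned to 10000 UMIs, 37.7% of epithelial-like cells in Ctrl and 43.3% in cKO at E9.5 had an Id4 UMI, against 0.269% and 1.03% of endothelial-like cells. The level over all cells and the level within the class went in opposite directions. Over all cells the log2 ratio was -0.76 [-0.91, -0.62], within epithelial-like cells it was 0.47 [0.27, 0.67], and with both libraries weighted to the same class shares it was 0.23. Epithelial-like cells were 12.1% of the Ctrl E9.5 barcodes and 3.08% of those of cKO E9.5, a share that sorting and dissection can set. In a sum over all cells, fewer cells of a type and less RNA per cell cannot be told apart. The annotated Id4 gene, on chromosome 13 from 48261116 to 48266028, overlaps the long non-coding gene A330033J07Rik, which all 4 gene tables list, and how shared reads were assigned is not given in the sources used here. In MLP-like cells Id4 had 1, 3, 16 and 40 UMIs in the 4 libraries, too few to show a difference between genotypes.

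**Figure D4:**
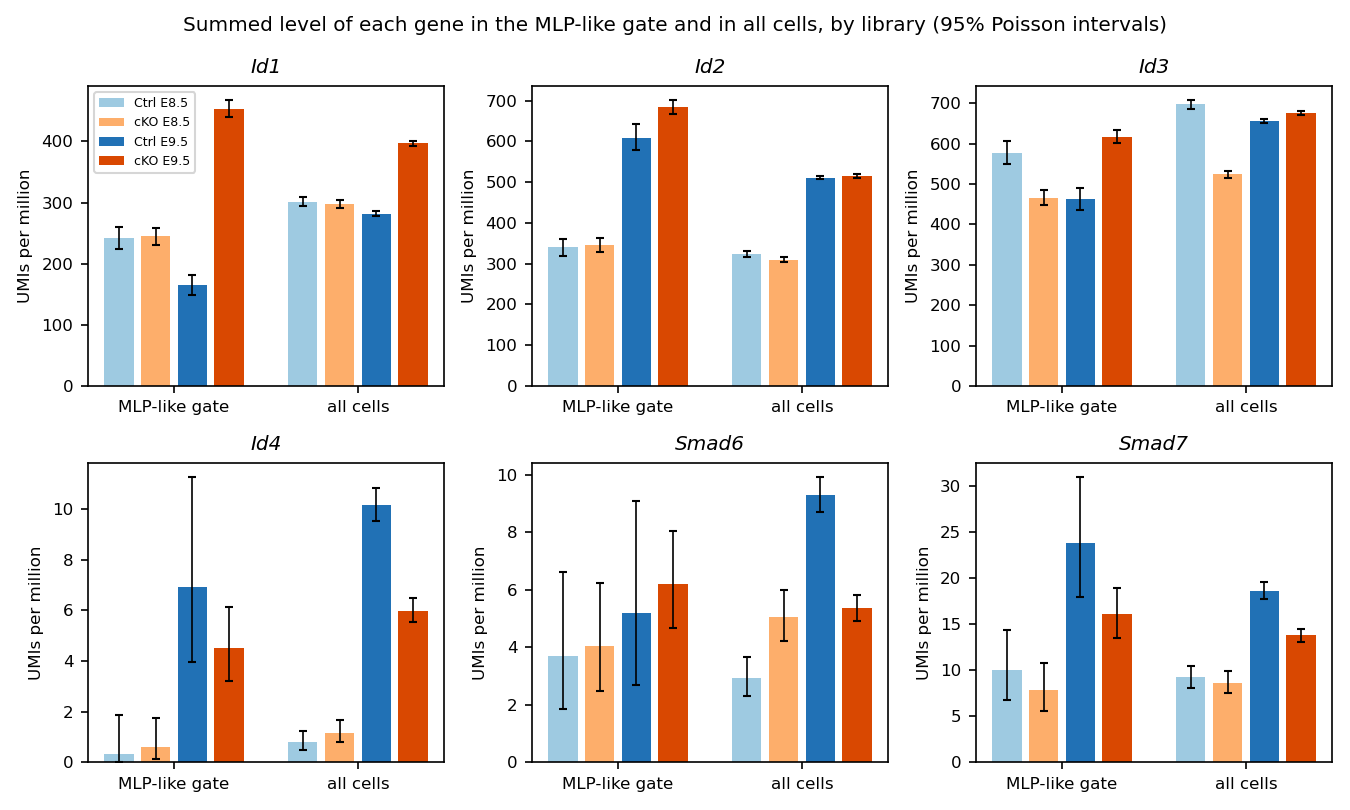
Level in UPM (y axis) of each gene in the MLP-like class and in all cells, bars for the 4 libraries with 95% Poisson intervals. In MLP-like cells Id1 stands at 164 in Ctrl and 453 in cKO at E9.5, Id2 separates by stage, and over all cells Smad6 goes from 2.93 to 5.05 at E8.5 and from 9.29 to 5.35 at E9.5.

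Smad6, the BMP-directed inhibitory Smad, is known from the heart and its outflow vessels, and was highest in CM-like cells in both E9.5 libraries. In CM-like cells it stood at 8.97 UPM (4 UMIs) in Ctrl and 19.2 (9 UMIs) in cKO at E8.5, and at 41.6 [30.8, 55.1] in Ctrl and 39.3 [27.5, 54.4] in cKO at E9.5. The E9.5 pair overlapped. In cKO E8.5 pSHF-like cells, at 20.3 (11 UMIs), overlapped with CM-like cells. In Ctrl E9.5 pSHF-like (28.0) and aSHF/SoM-like cells (24.0) followed, and pSHF-like cells overlapped with both neighbours. In both heart field classes the cKO E9.5 levels were lower. In pSHF-like cells the cKO level was 9.89 [5.95, 15.4], a log2 ratio of -1.50 [-2.33, -0.73]. In aSHF/SoM-like cells it was 14.3 [10.6, 18.9], a ratio of -0.74 [-1.27, -0.23]. Over the 11 classes the interval lay below 0 in 6 and above 0 in none, and with TMM factors below 0 in 4. MLP-like cells had few Smad6 UMIs in any library, 11, 20, 12 and 55, and their E9.5 ratio of 0.25 [-0.67, 1.29] exceeded that of all other cells by 1.08 [0.17, 2.0]. With 1 marker more per gate the ratio was 1.68, with cells thinned to 8000 UMIs -0.082 and with every cell past the MLP-like minimum -0.89, so its direction follows the choice of cells. At E8.5 the direction over all cells was the opposite one, at 2.93 UPM in Ctrl and 5.05 in cKO, a log2 ratio of 0.78 [0.36, 1.22], and 7 of the 8 classes with a ratio were above 0, with intervals above 0 in 2 of them. The class sums behind this were small. The largest ratio, 3.02 [0.24, 8.45] in pSHF-like cells, set 11 UMIs against 1.

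Smad7, the inhibitory Smad shared by BMP and TGF-beta signals, lies on chromosome 18 from 75367365 to 75395935. In MLP-like cells it stood at 10.1 UPM [6.80, 14.4] in Ctrl and 7.87 [5.60, 10.8] in cKO at E8.5, and at 23.8 [18.0, 31] in Ctrl and 16.1 [13.6, 19.0] in cKO at E9.5. The E8.5 pair overlapped and the E9.5 pair met only at the edges of their intervals, with a log2 ratio of -0.57 [-1.03, -0.09]. Smad7 was highest in pSHF-like, CM-like and aSHF/SoM-like cells in both E9.5 libraries, at 39.4, 35.7 and 32.5 UPM in Ctrl and 25, 27.3 and 24.9 in cKO. These 3 neighbours overlapped in each library. The lowest of the 3, aSHF/SoM-like cells, also overlapped with the class that followed, MLP-like cells (23.8) in Ctrl and epithelial-like cells (21.0) in cKO. The E9.5 ratio was below 0 in 9 of 11 classes, with the interval below 0 in 6 by total UMIs and in 2 with TMM factors. Since the median of all genes was itself shifted by -0.26 over all cells, the ratio of -0.44 for Smad7 over all cells comes to -0.18 relative to it, and 33.8% of genes had a lower one. At E8.5 the ratio over all cells was -0.09 [-0.36, 0.18], and 0 of 10 classes had an interval apart from 0.

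**Figure D5:**
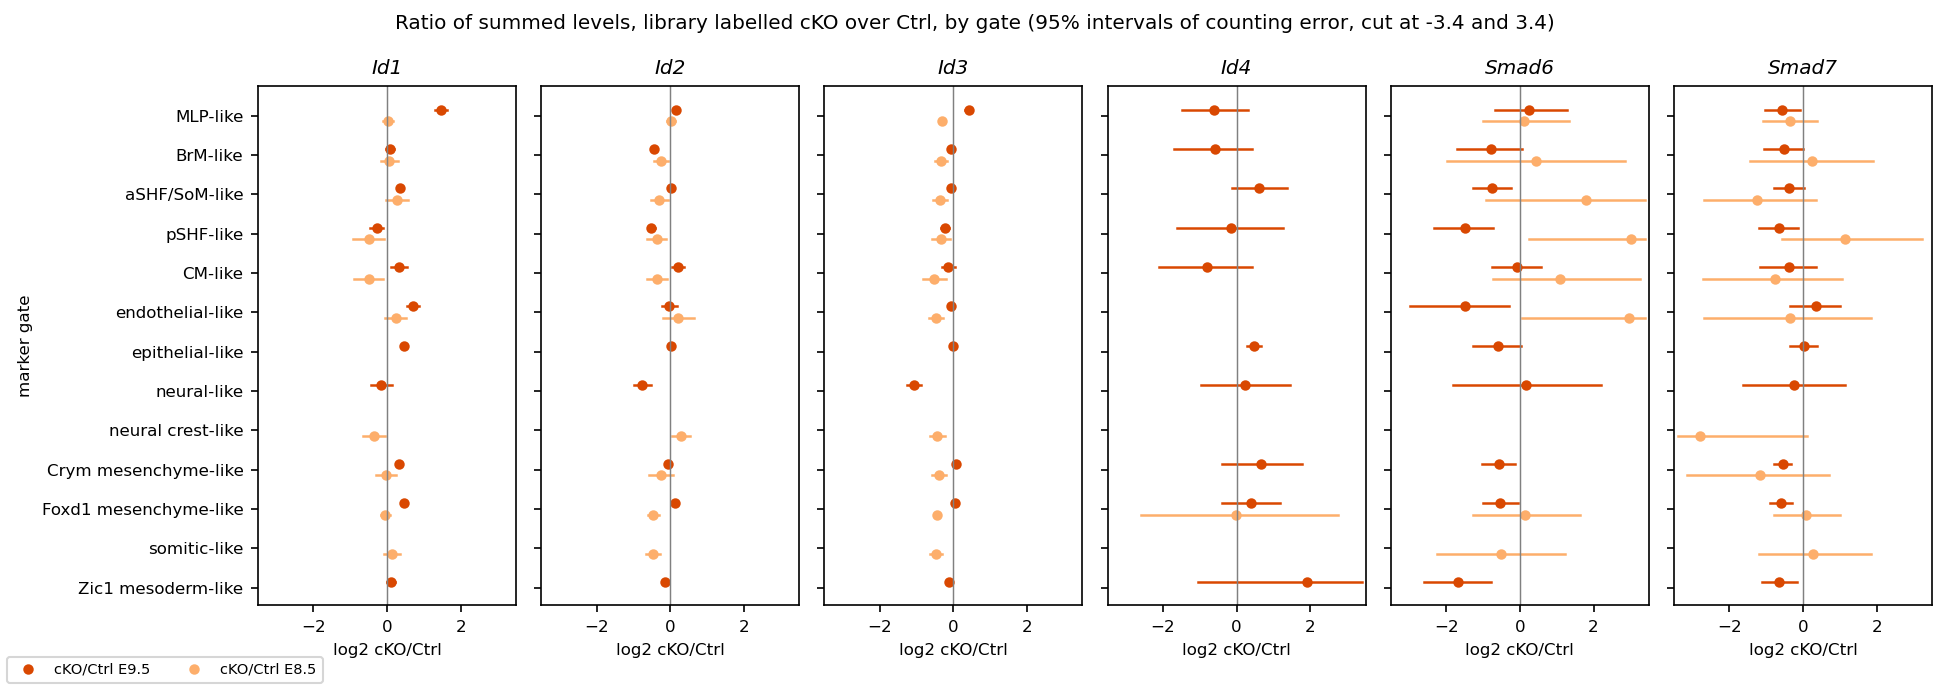
Log2 ratio of summed levels (x axis), library labelled cKO over Ctrl, of each gene by class (y axis), at E9.5 (dark) and E8.5 (light), with 95% counting intervals cut at the plot's limits. Id1 lies apart at 1.46 in MLP-like cells at E9.5, Id3 is left of 0 in every class at E8.5, and Smad6 lies left of 0 at E9.5 in 9 of 11 classes.

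Both Ctrl libraries share a gene table and give the change with stage, for dissections that differed in extent. In MLP-like cells Id1 went from 241 to 164 UPM, a log2 ratio of -0.55 [-0.74, -0.37], Id3 from 578 to 463, -0.32 [-0.43, -0.21], and Id2 from 340 to 609, 0.84 [0.72, 0.96]. The median of all genes was 0.23 in this comparison, so relative to it the ratios of Id1 and Id3 were -0.79 and -0.55 and that of Id2 0.61. Id1 was also lower in BrM-like cells at E9.5, from 418 to 229, -0.87 [-1.04, -0.70], and in Foxd1 mesenchyme-like cells from 268 to 153, -0.80 [-0.91, -0.70], and was higher in aSHF/SoM-like cells, at 327 and then 480, 0.55 [0.28, 0.84]. With every cell past the MLP-like minimum taken, Id1 in that class instead had a ratio of 0.12. Over the 8 classes compared, Id2, Smad6 and Smad7 had ratios above 0 in each by total UMIs, with intervals above 0 in 6, 4 and 4 classes. The Ctrl E8.5 sums of Smad6 were 1 to 11 UMIs a class, and with cells thinned to 8000 UMIs Smad7 in Foxd1 mesenchyme-like cells was at -0.16. Smad6 and Smad7 kept that in 8 of 8 classes with TMM factors and Id2 in 6. Over all cells Smad6 was 3.17 times [2.50, 4.07] and Smad7 2.02 times [1.76, 2.33] its E8.5 level. The median log2 ratio of all genes with stage lay between 0.16 and 0.32 over the 8 classes and was 0.38 over all cells. Relative to the median of its class, Id2 was lower only in CM-like (-0.15) and Foxd1 mesenchyme-like cells (-0.23). Relative to the median over all cells, Smad6 was at 1.29, Smad7 at 0.64 and Id2 at 0.28.

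Within a class the 3 abundant Id genes were correlated across cells. In MLP-like cells Pearson's r of log2(UMIs per 10000 + 1) between Id1 and Id3 was 0.45, 0.45, 0.44 and 0.50 over the cells of Ctrl E8.5, cKO E8.5, Ctrl E9.5 and cKO E9.5, and between Id2 and Id3 0.46, 0.57, 0.43 and 0.33. Cells of 1 library share its preparation and their depth, and these values are a description. Across 33 sums of a class in a library the highest correlation between members was that of Smad6 with Smad7, r = 0.76, followed by Id2 with Smad7, 0.73, and Id1 with Id2, 0.62. Among 7858 genes the patterns most like that of Id1 were those of Arid3b (0.62), Id2 (0.62) and Msx2 (0.59), the last a homeobox gene also listed as a BMP response. Id2 was most like Tpbg (0.89), Unc119 (0.86) and Ppif (0.86), Id3 like Wdr18 (0.61), Rdm1 (0.61) and Dna2 (0.59), and Id4 like Uchl1 (0.88), Hist3h2ba (0.86) and Fgf15 (0.85). Smad6 was most like Mzt1 (0.83), Hand1 (0.83) and Mylk3 (0.83), the last 2 genes of developing heart, and Smad7 like Ldhb (0.83), Map2k2 (0.82) and Alkbh7 (0.82). The sums share libraries and 1 scaling by total UMIs.

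The other genes of the pathway gave values on both sides of 0 in MLP-like cells at E9.5. Their counts past 1.5-fold stand beside the 5.9% of all genes that were higher and the 20.7% that were lower by as much. Of the BMP ligands, 2 of 7 had at least 50 UMIs, 1 was past 1.5-fold lower and none higher. Bmp7 was at 34.2 UPM in Ctrl and 10.2 in cKO, a log2 ratio of -1.74 [-2.19, -1.29], and Bmp4 at 60.3 and 41.2, -0.55 [-0.83, -0.26]. Of the antagonists 4 of 10 reached 50 UMIs, with Grem1, a secreted BMP trap, lower at -0.70 [-1.05, -0.35], Fst at 0.54 [0.07, 1.05] and Fstl1 at -0.31 [-0.47, -0.15]. Of 8 receptors 4 reached 50 UMIs and 1, Acvr2a, was past 1.5-fold, at -0.99 [-1.62, -0.34], and of 4 Smad mediators 3 did and 0 were past it, with Smad5 at -0.20, Smad1 at -0.19 and Smad4 at 0.13. The medians of these lists were -1.15, -0.22, -0.27 and -0.19, beside -0.22 over all genes.

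Of the 12 other genes listed as BMP responses 5 reached 50 UMIs, 1 was past 1.5-fold higher and 1 lower, and their median was 0.08. Msx1 stood at 3.90 UPM (9 UMIs) in Ctrl and 7.09 in cKO, 0.86 [-0.15, 2.06], and Hey1, a Notch and BMP target, at 61.1 and 20.7, -1.56 [-1.89, -1.24]. Atoh8 had a ratio of 0.18 [-0.55, 0.98]. Of the TGF-beta arm 6 of 10 reached 50 UMIs and 2 were past 1.5-fold lower, Smad2 at -0.87 [-1.26, -0.46] and Tgfb2 at -0.68 [-0.94, -0.41], with Smad3 at -0.26 and a list median of -0.18.

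All 3 E proteins, the partners that Id proteins take up, reached 50 UMIs and 0 were past 1.5-fold. Tcf3 stood at -0.48 [-0.62, -0.33], Tcf4 at 0.14 [-0.07, 0.34] and Tcf12 at 0.03 [-0.17, 0.23], with a median of 0.03. Of 9 tissue bHLH factors 5 reached 50 UMIs and 3 were past 1.5-fold higher, beside 5.9% of all genes, with a median of 0.70, and for 2 of the 3 the Ctrl sum was 1 and 8 UMIs. Twist1, an early mesenchyme factor, stood at 42.1 and 72.7 UPM, 0.79 [0.48, 1.11], Tcf15, a somite and paraxial mesoderm factor, at 1 UMI in Ctrl and 70 in cKO, 4.18 [1.66, 9.51], and Msc, a factor of branchiomeric muscle, at 8 UMIs and 50, 0.70 [-0.39, 1.99].

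Markers of handling, blood and proliferation were read in the same cells. The 12 dissociation stress genes summed to 271 UPM in Ctrl and 205 in cKO at E9.5, with 2 of the 5 that reached 50 UMIs past 1.5-fold lower, beside 20.7% of all genes, and a median of -0.45. Btg2 was at -1.18, Junb at -0.81 and Jun at -0.45. The 6 blood genes summed to 3.47 and 4.84 UPM in MLP-like cells, with 0 of 6 reaching 50 UMIs, against 67.9 and 4.89 over all cells. The 6 G2/M genes summed to 1072 and 1133 UPM with 0 of 6 past 1.5-fold, Ube2c at 0.54, Ccnb1 at -0.40 and Cdk1 at -0.35, and a median of 0.05. The 6 S-phase genes summed to 1210 and 815 UPM with 3 of 6 past 1.5-fold lower, again beside 20.7% of all genes, Mcm2 at -0.99, Rrm2 at -0.77 and Mcm5 at -0.74, and a median of -0.64. Their part in the Id1 values was not tested. At E8.5, where the interval of the Id1 ratio in MLP-like cells held 0, the S-phase sums were 831 in Ctrl and 858 in cKO and the stress sums 149 and 124.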

How the data were processed

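Tbx1Cre-lineage cells were profiled in 4 libraries, 1 per genotype and stage. The files deposited by the authors hold unnormalized UMI counts for every gene and barcode from Cell Ranger (3.1.0 in the submitters' processing notes, 3.0.2 in the matrix headers of both E8.5 libraries) on mm10, with barcode and gene lists, and no replicates, normalization or cell annotation. Totals were 25391654 (Ctrl) and 25847734 UMIs (cKO) at E8.5, and 94834703 (Ctrl) and 104773150 (cKO) at E9.5. The genes shared by both tables held 99.4% to 99.9% of them.

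Every barcode was kept, and no doublet caller was run. Cells were placed in the gate with the highest share of its markers detected, ties in none. The minimum per gate was set after the data had been seen, without the 6 genes. The members, gene lists and markers were chosen with earlier results of these data known. Genes were named by rule: all members, the 3 genes most like each in log2(UPM + 1) over gate sums of at least 30 cells, among genes reaching 20 UPM, and up to 3 genes per list by size of the MLP-like E9.5 ratio. Tcf15, with 1 UMI in Ctrl, was named by that rule. Ratios needed 15 cells in both libraries, and against a sum of 0 a floor of 3 UMIs was used. With 1 library per group no p-value was computed. Intervals and floors cover counting error only. Ratios and intervals were tested on counts simulated with Poisson error. That checks the calculation and does not cover variation among cells or embryos. Python 3.11.15, numpy 2.4.6, scipy 1.17.1, pandas 2.3.3, R 4.3.3 and edgeR 4.0.16 (TMM factors only) were used.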

Additional observations from a re-analysis of the deposited data

Results flagged for a closer look

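The log2 ratio of the library labelled cKO over Ctrl took opposite directions at E9.5 and E8.5 for 12 pairs of a gene and a class, each with a counting interval apart from 0 at both stages. With 1 library per group the difference between the stages was not tested. The median ratio of all genes over all cells was itself -0.26 at E9.5 and 0.04 at E8.5. The share of all genes with opposite directions was not counted, so nothing is read from the number of pairs. Id3 was higher at E9.5 and lower at E8.5 in 5 of them, with 0.043 and -0.41 over all cells, 0.42 and -0.31 in MLP-like cells, 0.070 and -0.39 in Crym mesenchyme-like cells, 0.041 and -0.45 in Foxd1 mesenchyme-like cells, and 0.12 and -0.42 in cells of no class. Smad6 was lower at E9.5 and higher at E8.5 in 4, with -0.80 and 0.78 over all cells, -1.50 and 3.02 in pSHF-like cells, -1.49 and 2.96 in endothelial-like cells, and -0.99 and 0.80 in cells of no class. Id1 in CM-like cells had 0.33 and -0.50, Id2 in CM-like cells 0.22 and -0.36, and Id2 in Foxd1 mesenchyme-like cells 0.13 and -0.46. The opposite directions were lost for 5 of the pairs under an alternative. Thinning cells to 8000 UMIs gave 0.037 and 0.064 for Id1 in CM-like cells, -0.054 and -0.25 for Id2 and -0.022 and -0.054 for Id3 in Foxd1 mesenchyme-like cells, and 1 marker more per gate gave -0.12 and -0.62 for Id2 there. With the ratio of outside cells subtracted Id3 had 0.37 and 0.097 in MLP-like and 0.050 and 0.025 in Crym mesenchyme-like cells, and Id1 in CM-like cells -0.16 and -0.49. With TMM factors the 2 pairs in cells of no class kept opposite directions, at 0.38 and -0.46 for Id3 and -0.73 and 0.76 for Smad6. Other alternatives are not given for these 2 pairs. The Smad6 ratios of pSHF-like and endothelial-like cells at E8.5 each rest on 1 UMI in Ctrl.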

How the results depend on the processing

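No paired analysis was possible because each group is 1 library, and no replicate could be left out. Alternative values numbered 118 for the cKO over Ctrl ratios of MLP-like cells, shares and gene percentages. Of these 97 stayed within the error of the reported value, 19 moved and 2 whose interval had excluded 0 changed sign. Of 797 others, which include the stage ratios of MLP-like cells, 665, 106 and 26 did so. Smad6 in MLP-like cells at E9.5, whose interval held 0, also changed sign under 2 alternatives. In MLP-like cells at E9.5, TMM factors gave log2 ratios of 1.73 for Id1, 0.43 for Id2 and 0.68 for Id3. Leaving out cells past more than 1 gate, chosen after seeing the data, gave 1.92, 0.32 and 0.57. Taking every cell past the MLP-like minimum, also chosen after seeing the data, gave 0.56, -0.14 and 0.084, with -0.89 for Smad6 and, for Id1 with stage, 0.12. Asking 1 marker more per gate gave 1.68 for Smad6. With the ratio of outside cells subtracted Id1 was at 1.0. At E8.5 Id2 was 0.36 after thinning to 8000 UMIs and 0.19 without cells past more than 1 gate, and Id3 minus outside cells was 0.097.

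In MLP-like cells at E9.5, 9.36% of genes were at least 1.5-fold higher in cKO with a minimum of 10 UMIs. With TMM factors 12.7% were at least 1.5-fold higher and 7.89% at least 1.5-fold lower. At E8.5, with a minimum of 10 UMIs, 12.9% were higher and 7.22% lower by as much. The unthinned share of MLP-like cells with Id1 differed by 25.3 percentage points at E9.5.

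Signs changed elsewhere as well. With outside cells subtracted at E9.5 Id1 was -0.15 in aSHF/SoM-like, -0.16 in CM-like, -0.074 in epithelial-like, -0.19 in Crym, -0.014 in Foxd1 and -0.40 in Zic1 cells, and Smad6 0.039 in aSHF/SoM-like, 0.24 in Crym and 0.33 in Foxd1 cells. At E8.5 Id3 was then 0.076 in BrM-like, 0.065 in aSHF/SoM-like, 0.081 in pSHF-like and 0.025 in Crym cells. TMM factors at E9.5 gave Id3 0.15 in BrM-like and 0.076 in Zic1 cells, and Id2 0.13 in Crym and 0.065 in Zic1 cells. Thinning gave Id2 0.026 in Crym and -0.054 in Foxd1 cells, Id3 -0.022 in Foxd1 cells and Smad6 1.13 in Zic1 cells at E9.5, Id1 0.064 in CM-like cells at E8.5, and with stage in Foxd1 cells Id3 0.031 and Smad7 -0.16. With 1 marker more Id2 was -0.12 in Foxd1 cells. The causes were not tested. Id4, Smad6 and Smad7 were limited by depth, with 1 to 143 UMIs per library in MLP-like cells.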
